A study of Mus musculus with 13 samples.

Results

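The EGF receptor family was read through 10 genes: the 7 ligands Areg, Ereg, Btc, Hbegf, Tgfa, Epgn and Egf, and the 3 receptors Egfr, Erbb2 and Erbb3. Members were chosen by name, as the array's probe sets annotated to exactly these symbols, and the probe set with the highest mean stood for its gene. This gave 9 of the 10 genes, each with 1 probe set, among the 19934 genes named on the array, and all 9 were among the 15875 genes bright enough to be tested. Areg was not analysed here, because no probe set was listed with its symbol in the annotation used. A further probe set, listed with Erbb2 and another gene together, was left out.

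Gene expression was measured on 13 Affymetrix arrays in epithelium freed from mouse esophagus and forestomach with dispase. Every animal carried L2-Cre, a Cre driven by the ED-L2 promoter, which is active in the stratified squamous epithelium of the mouth, esophagus and forestomach. The strain was C57Bl/6 and 129 mixed throughout, no treatment was named, and ages were not among the labels used. The alleles of p120-catenin, the adherens junction protein made from Ctnnd1, set the groups apart. Control animals (p120 +/+) gave 3 esophagus and 3 forestomach samples, both tissues coming from the same animals 214, 216 and 217. Animals with both p120 alleles floxed (flox/flox) gave 4 esophagus samples (193, 307, 313 and 335) and 3 forestomach samples from other animals (412, 426 and 510). All 3 flox/flox forestomach samples were labelled as masses, so genotype and the formation of a mass cannot be told apart.

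The ligands of this family are made as membrane-bound precursors and are released by proteases of the ADAM family. They bind EGFR, which pairs with itself, with ERBB2 or with ERBB3. ERBB2 is a receptor without a ligand of its own, and the own ligands of ERBB3 are among the neuregulins. The bound receptors signal through RAS and ERK and through PI3-kinase and AKT, and in stratified epithelia such as these they are known for driving keratinocyte growth, migration and wound closure.

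Values are log2 intensities, and a difference is a difference of group means on that scale with the standard error (SE) of a limma fit of all 13 arrays. A gene was called when its adjusted p over the 15875 genes tested was under 0.05. Ctnnd1 itself differed by -0.56 (SE 0.12, adjusted p = 0.0145) between masses and control forestomach, and by -0.29 (SE 0.11, adjusted p = 0.637) between flox/flox and control esophagus. The list of squamous epithelial markers was bright on every array, with a mean between 11.7 and 12.2. Mass 426 stood apart. Its list of glandular stomach markers averaged 11.5, against 5.27 to 5.84 on the other 12 arrays, and all 8 tested markers of that list were highest on it. Of the 7 esophagus arrays, those of control animal 214 and flox/flox animals 307 and 335 carried skeletal muscle transcripts, with a list mean of 8.0 to 9.36 against 5.60 to 5.91 on the other 4. The same 3 arrays were also higher for the fibroblast and matrix list (10.8, 9.31 and 9.90 against 6.20 to 6.49), for smooth muscle (8.81, 8.61 and 7.27 against 5.62 to 6.05) and for endothelium (7.07, 6.62 and 7.32 against 5.05 to 5.37). These 3 are called the stromal esophagus arrays here, and the part of stromal RNA in the results was not tested.

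In the masses the family did not move in 1 direction. Ereg and Btc, which make epiregulin and betacellulin, fell against control forestomach, 3.48-fold and 1.76-fold. Erbb3 rose, by 1.28-fold, a call that several of the alternatives tried did not keep. Over all genes tested 10.7% were called in this comparison, 2.31% higher and 8.4% lower, and of the 9 members 3 were called, 1 higher and 2 lower. Epgn, which makes epigen, read more than 3 log2 units above the control mean in 2 of the 3 masses and was not called with all 3. Between flox/flox and control esophagus none of the 9 members was called, where 0.0126% of all genes were. With no change of genotype, control forestomach had more Ereg and Btc than control esophagus. There 2 of 9 members were called higher and none lower, against 3.51% and 3.16% of all genes and 6.67% in both directions. That fit takes no account of the 3 animals that gave both tissues. With the animal as a random block Erbb2 was called lower as well (adjusted p = 0.0144), beside 16.8% of all genes called. The comparisons share the control arrays and so are not independent of each other.

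**Figure D1:**
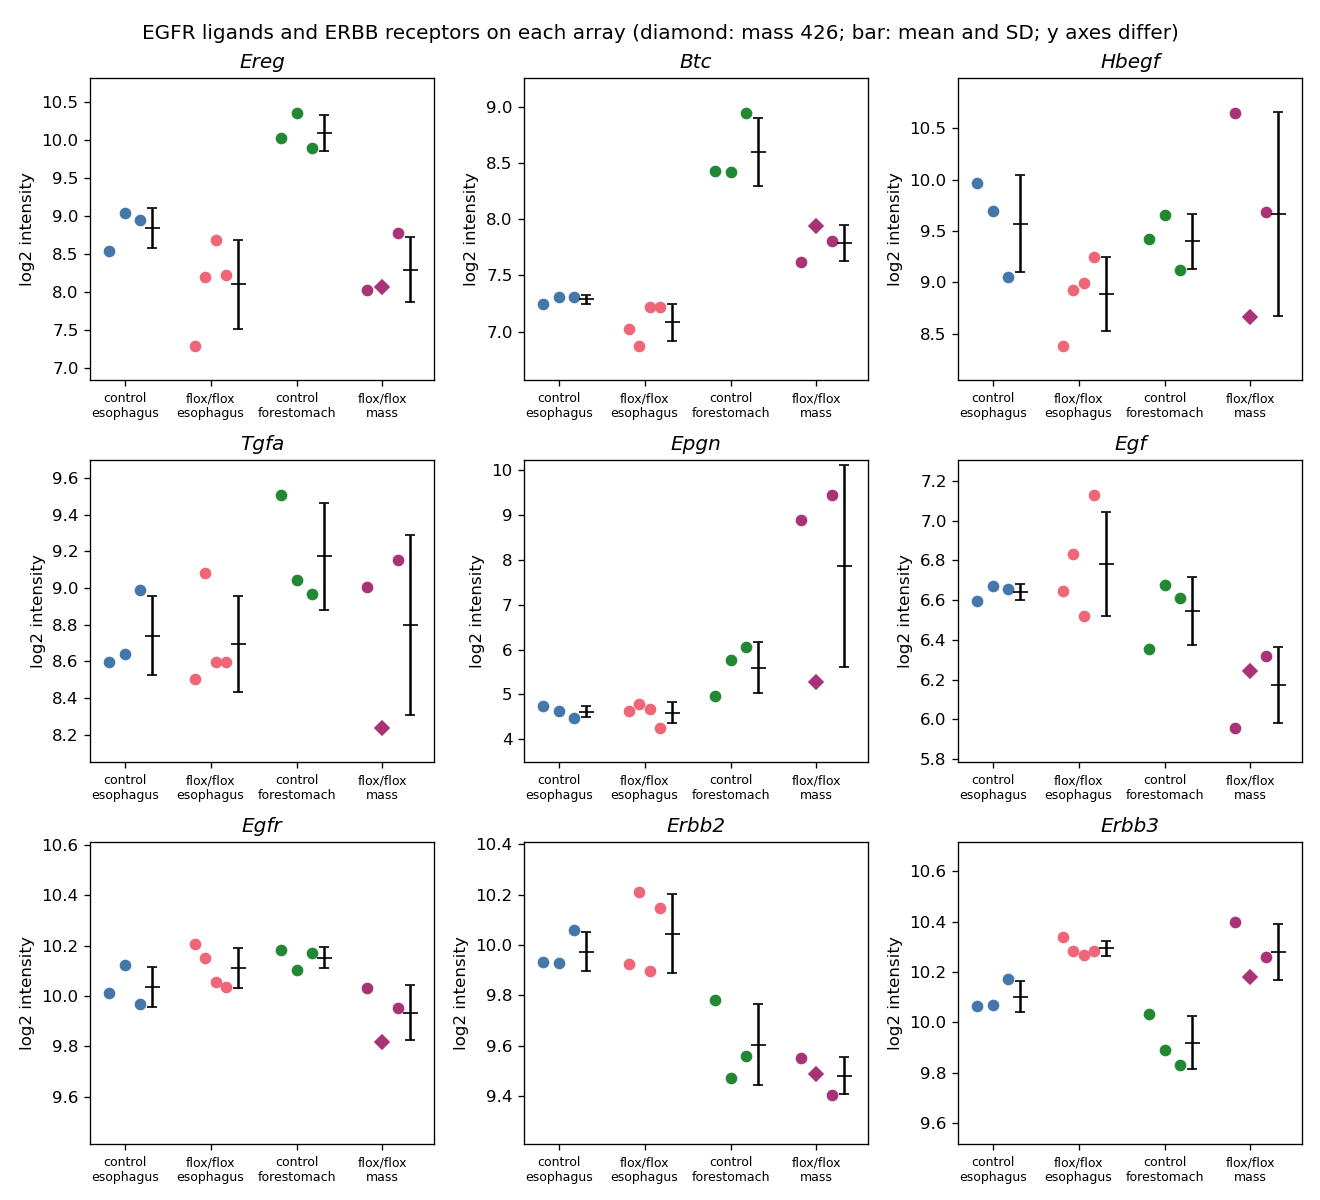
Log2 intensity of each of the 9 measured ligands and receptors on every array, by group, with the group mean and SD as a bar; the diamond is mass 426 and each panel has its own y axis. Ereg and Btc are highest in the 3 control forestomachs, from which the masses are separated, and Epgn is at 8.88 and 9.44 in masses 412 and 510 and at 5.28 in mass 426.

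Epiregulin is a ligand of EGFR and ERBB4 that is induced in wounded and inflamed epithelium. Ereg read 10.02, 10.35 and 9.89 in the control forestomachs of animals 214, 216 and 217, and 8.03, 8.06 and 8.78 in masses 412, 426 and 510. Control esophagus read 8.54, 9.03 and 8.95 (animals 216, 217 and 214), and flox/flox esophagus 7.29, 8.19, 8.68 and 8.22 (animals 193, 307, 313 and 335). All 3 masses lay below all 3 control forestomachs and inside the range of the esophagus arrays, while the esophagus groups overlapped. The difference in the forestomach was -1.80 (SE 0.31, 95% interval -2.48 to -1.12, adjusted p = 0.00523), and without mass 426 it was -1.69 (SE 0.35, adjusted p = 0.0128). In the esophagus the difference was -0.74 (SE 0.29, 95% interval -1.38 to -0.11, adjusted p = 0.638). The test of the difference between these changes gave -1.06 (SE 0.43, adjusted p = 0.406), so the change was not shown to differ between the tissues. Fewer cells that express a gene and less of its RNA per cell cannot be told apart in such samples.

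Betacellulin is another ligand of EGFR and ERBB4. Btc read 8.43, 8.42 and 8.95 in control forestomachs 214, 216 and 217 and 7.62, 7.94 and 7.81 in masses 412, 426 and 510. Control esophagus read 7.24 in animal 216 and 7.31 in animals 217 and 214, and flox/flox esophagus read 7.03, 6.87, 7.22 and 7.21 in animals 193, 307, 313 and 335. None of the 4 groups overlapped another, and their order was control forestomach, mass, control esophagus and flox/flox esophagus. The masses were lower than control forestomach by a log2 difference of -0.81 (SE 0.15, 95% interval -1.14 to -0.48, adjusted p = 0.00714), and by -0.89 (adjusted p = 0.00795) without mass 426. In the esophagus the step was small, -0.20 (SE 0.14, 95% interval -0.51 to 0.11), and not called (adjusted p = 0.887). The difference between the changes, -0.61 (SE 0.21), was not called either (adjusted p = 0.299). The forestomach call for Btc was lost when only the forestomach arrays were fitted (adjusted p = 0.0609). That fit has fewer arrays to estimate the spread, and the cause of the loss was not tested.

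Between the control tissues Ereg was 2.37-fold higher in forestomach (log2 difference 1.25, SE 0.31, adjusted p = 0.0342). Btc was 2.48-fold higher there (1.31, SE 0.15, adjusted p = 0.00039). Both ligands were therefore higher in control forestomach than in any other group, with no overlap of single arrays. The Btc difference was called under all 26 alternatives tried, with adjusted p from 3.09e-05 to 0.00538. That of Ereg was lost when any 1 of the 6 control arrays was left out (adjusted p from 0.0724 to 0.142) or the 3 stromal esophagus arrays (adjusted p = 0.124), and its size stayed between 1.10 and 1.34.

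Epigen is a low-affinity EGFR ligand. Epgn read 4.97, 5.76 and 6.06 in control forestomachs 214, 216 and 217. Masses 412 and 510 read 8.88 and 9.44, far above every control, and mass 426 read 5.28, within the control range. On the 7 esophagus arrays Epgn lay between 4.26 and 4.8 and never passed the filter of 5, so it entered the test only through forestomach arrays, 2 of 3 controls and 3 of 3 masses. With all 3 masses the difference was 2.27 (SE 0.79, 95% interval 0.54 to 4.0) and was not called (adjusted p = 0.0944). Without mass 426, the array with glandular stomach transcripts, it was 3.57 (SE 0.29, 95% interval 2.94 to 4.19), an 11.8-fold difference (adjusted p = 0.000107). The filter asks for 3 arrays and only 2 outside the masses passed it. Epgn was therefore tested only because of the masses, where it is highest. Leaving out mass 426 also removes the 1 mass within the control range. The call without it is given as a description and is not used. In that fit of 12 arrays 11.6% of all genes were called in the forestomach, and 4 of the 9 members, Ereg, Btc, Erbb3 and, with the limit just given, Epgn. Epgn was also the 1 member called in that fit for the difference between the forestomach and esophagus changes (3.59, SE 0.37, adjusted p = 0.00187). Of all genes 0.878% were called for it. The esophagus values of Epgn all lay below the filter, so this call adds nothing to the forestomach values and is not used. The part of the glandular tissue of mass 426 in its low Epgn value was not tested. In the esophagus the groups differed by -0.02 (adjusted p = 1.0), with an SE of 0.74 that the fit takes largely from the spread of the masses. Every control forestomach read above every esophagus array, with a difference of 0.98 between the control tissues (SE 0.79, adjusted p = 0.515). It was called only without mass 426 (adjusted p = 0.0372). That call is not used either, the esophagus values being below the filter.

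The genes of epigen, epiregulin, amphiregulin and betacellulin follow each other on mouse chromosome 5 as 4 protein-coding neighbours, in the order Epgn, Ereg, Areg and Btc in the RefSeq table of build GRCm38.p6. Neighbours in this cluster went opposite ways in masses 412 and 510, in which Epgn was above and Ereg and Btc were below every control forestomach. The 250 bases before the start of a gene were in the RefSeq promoter table for 7 of the 10 members, Epgn and Btc among them, and are shown for these to set the cluster's outer genes side by side, 5′ to 3′ on the strand of the gene. Epgn is on the plus strand (chr5:91027267-91027516) and Btc on the minus strand (chr5:91402995-91403244). Capitals mark matches to the motifs searched.
Epgn: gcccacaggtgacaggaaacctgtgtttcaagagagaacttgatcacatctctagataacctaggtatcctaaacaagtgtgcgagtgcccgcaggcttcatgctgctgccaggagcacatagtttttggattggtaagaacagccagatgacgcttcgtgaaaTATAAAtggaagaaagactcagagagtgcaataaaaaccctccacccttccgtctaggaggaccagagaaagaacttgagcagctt
Btc: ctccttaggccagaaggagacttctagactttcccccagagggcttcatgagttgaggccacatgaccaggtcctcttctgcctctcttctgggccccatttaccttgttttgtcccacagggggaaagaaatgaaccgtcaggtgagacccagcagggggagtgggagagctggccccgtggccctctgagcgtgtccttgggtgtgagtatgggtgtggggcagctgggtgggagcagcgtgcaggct
The Epgn window holds 46.8% G and C and has 1 match to the TATA box letters TATAAA, which begins 86 bases before the start. The Btc window holds 59.6% G and C and has no match. The motifs were searched on both strands: TATAAA is found in 12.4% of the 32851 windows of this length in the table, the AP-1 letters TGANTCA in 6.7%, the CRE letters TGACGTCA in 1.5% and the GC box GGGCGG in 32.7%. A match is only a description of the letters in this window.

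The other 3 ligands were not called in any comparison of the fit of all 13 arrays. Heparin-binding EGF is induced early in stressed and wounded keratinocytes. Hbegf read 10.65 in mass 412, 8.66 in mass 426 and 9.68 in mass 510, against 9.42, 9.66 and 9.12 in control forestomachs 214, 216 and 217. The masses lay above, below and at the edge of the controls, and the difference of means was 0.26 (SE 0.41, 95% interval -0.64 to 1.17, adjusted p = 0.761). It was 0.77 (adjusted p = 0.184) without mass 426 and -0.23 (adjusted p = 0.720) without mass 412. Control esophagus read 9.97, 9.70 and 9.06 (animals 216, 217 and 214) and flox/flox esophagus 8.39, 8.93, 8.99 and 9.25 (193, 307, 313 and 335), groups that overlapped (-0.69, SE 0.39, adjusted p = 0.799). Without the 3 stromal esophagus arrays the difference was -1.14 (SE 0.51, 95% interval -2.29 to 0.01, adjusted p = 0.841).

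TGF-alpha is a ligand that keratinocytes make for themselves. Tgfa read 9.0, 8.24 and 9.15 in masses 412, 426 and 510 and 9.51, 9.05 and 8.97 in control forestomachs 214, 216 and 217 (-0.37, SE 0.24, adjusted p = 0.385). Mass 426 was the 1 mass below every control, and without it the difference was -0.09 (SE 0.21). Control esophagus read 8.60, 8.64 and 8.99 (animals 216, 217 and 214), and flox/flox esophagus 8.50, 9.08, 8.60 and 8.60 (193, 307, 313 and 335). These groups overlapped, and their difference was -0.05 (SE 0.23, 95% interval -0.54 to 0.45, adjusted p = 0.998). Between the control tissues Tgfa differed by 0.43 (SE 0.24, adjusted p = 0.335), and with the animal as a fixed block this was called (adjusted p = 0.0283).

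Egf, the founding ligand, read 6.35, 6.67 and 6.61 in control forestomachs 214, 216 and 217 and 5.96, 6.24 and 6.32 in masses 412, 426 and 510. The masses lay just below the controls without overlap, and the difference of -0.37 (SE 0.16, adjusted p = 0.161) was not called. With quantile normalization it was -0.50 (adjusted p = 0.0358), and with each array centred on its median it was -0.47 (adjusted p = 0.0471). Its esophagus groups overlapped, with a difference of 0.14 (SE 0.15, adjusted p = 0.967). Control forestomach and control esophagus differed by -0.17 (adjusted p = 0.848) for Hbegf and -0.10 (adjusted p = 0.758) for Egf. The forestomach change exceeded the esophagus change by 0.95 for Hbegf (SE 0.57, adjusted p = 0.639), and lay below it by a log2 difference of -0.33 for Tgfa (SE 0.33) and -0.51 for Egf (SE 0.21), neither of which was called (adjusted p = 0.835 and 0.433).

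The group means of the 3 receptors spanned 0.22 for Egfr, 0.37 for Erbb3 and 0.56 for Erbb2. Those of the ligands spanned 0.48 for Tgfa, 0.61 for Egf, 0.78 for Hbegf, 1.52 for Btc, 1.99 for Ereg and 3.28 for Epgn, so Tgfa and Egf lay near Erbb2. Egfr, the receptor that the measured ligands share, read 10.18, 10.10 and 10.17 in control forestomachs 214, 216 and 217 and 10.03, 9.81 and 9.95 in masses 412, 426 and 510. Each mass lay below each control, by a mean of -0.22 (SE 0.09, 95% interval -0.42 to -0.02) that was not called (adjusted p = 0.156). In the esophagus Egfr differed by 0.08 (SE 0.08, 95% interval -0.11 to 0.26, adjusted p = 0.975).

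Erbb3, a receptor of neuregulins, whose own kinase is weak, was the receptor called in the forestomach. It read 10.04, 9.89 and 9.83 in control forestomachs 214, 216 and 217 and 10.40, 10.18 and 10.26 in masses 412, 426 and 510. Control esophagus read 10.06, 10.07 and 10.17 (animals 216, 217 and 214) and flox/flox esophagus 10.34, 10.29, 10.27 and 10.28 (193, 307, 313 and 335). In both tissues every flox/flox sample lay above every control. The forestomach difference was 0.36 (SE 0.09, 95% interval 0.16 to 0.56, adjusted p = 0.0257), which ranked 360th of the 366 called rises by size. The esophagus difference was 0.19 (SE 0.08, 95% interval 0.01 to 0.38, adjusted p = 0.698), and the changes differed by 0.17 (SE 0.12, adjusted p = 0.730). The forestomach call did not hold under median centring, array weights, the forestomach arrays alone or without the 3 stromal esophagus arrays (adjusted p from 0.0503 to 0.163). It was also lost without control 216, control 217 or mass 412 (adjusted p = 0.0882, 0.109 and 0.0669), with differences of 0.30 to 0.35.

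Erbb2, the receptor that has no ligand of its own, read 9.93, 9.93 and 10.06 in control esophagus 216, 217 and 214 and 9.78, 9.47 and 9.56 in control forestomachs 214, 216 and 217. The control tissues did not overlap, with forestomach lower by -0.37 (SE 0.11, adjusted p = 0.0817). With the animal as a random block, which takes account of the 3 animals that gave both tissues, the same difference had an SE of 0.09 and was called (adjusted p = 0.0144). In that blocked fit 16.8% of all genes were called and 3 of the 9 members, Ereg, Btc and Erbb2. The masses, at 9.55, 9.49 and 9.41, differed from control forestomach by -0.12 (SE 0.11, adjusted p = 0.573), and the esophagus groups by 0.07 (SE 0.11, adjusted p = 0.995). ERBB4, the remaining receptor of the family, read close to the filter of 5 in each group, with a mean Erbb4 between 4.94 and 5.01.

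**Figure D2:**
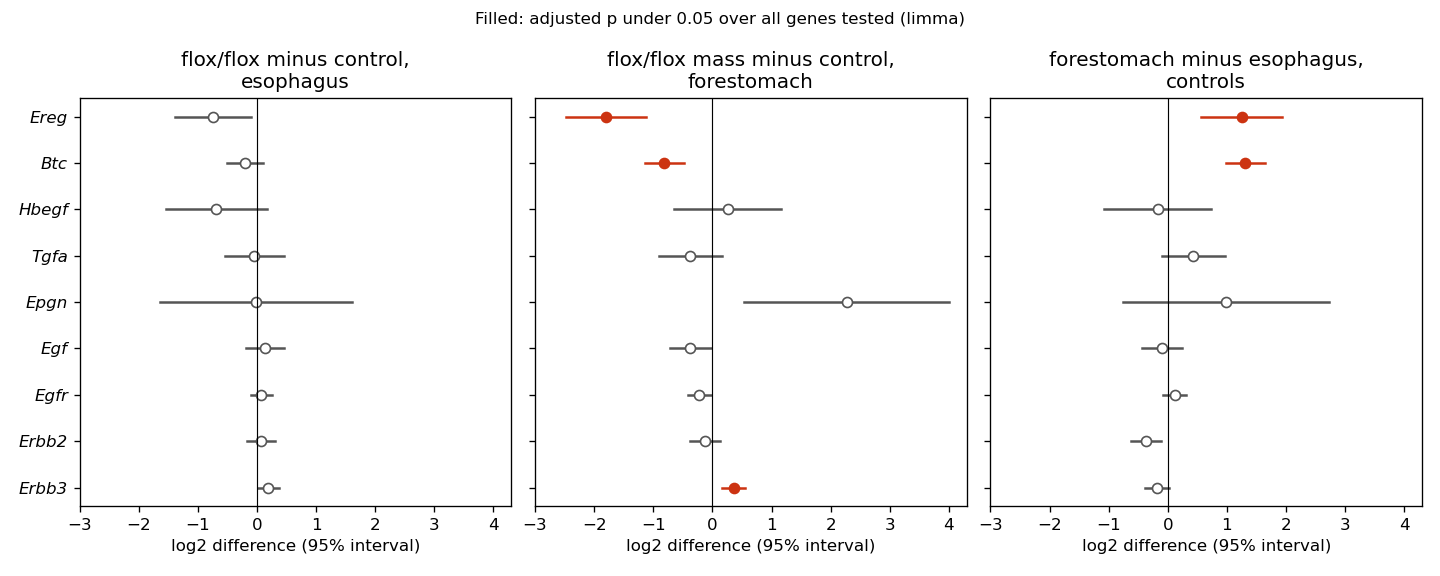
Log2 differences with 95% intervals for the 9 members, for flox/flox against control esophagus, masses against control forestomach, and control forestomach against control esophagus; filled points have an adjusted p under 0.05. Filled points are Ereg, Btc and Erbb3 in the masses, Ereg and Btc between the control tissues, and none in the esophagus, and the interval of Epgn is the widest in each panel.

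Counting groups without overlap gave 5 of 9 members for masses against control forestomach, with Erbb3 higher and Ereg, Btc, Egf and Egfr lower, where 27.9% of all genes did not overlap. For the esophagus it gave Erbb3 higher and Btc lower, 2 of 9, where 10.3% of all genes did not overlap. For the control tissues it gave 5 of 9, with Ereg, Btc and Epgn higher and Erbb2 and Erbb3 lower in forestomach, where the share of all genes was 37.3%. The median difference of the 6 ligands was -0.37 in the masses, 0.71 between the control tissues and -0.12 in the esophagus. The 3 receptors had medians of -0.12, -0.18 and 0.08 in the same order, and all genes tested had 0.01, 0.02 and 0.01. None of the 9 members was called in the test of the forestomach against the esophagus change over all 13 arrays, where 0.139% of all genes were.

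The masses differed from each other as well as from the controls. Mass 426 was the lowest of the 3 for Hbegf, Tgfa, Epgn, Egfr and Erbb3, and the highest for Btc. Marker lists of other cell types had these mean levels in masses and in control forestomach: 7.0 to 9.13 against 6.32 to 7.26 for the fibroblast list, 6.25 to 7.33 against 5.38 to 6.09 for endothelium, 6.70 to 7.65 against 6.21 to 6.32 for macrophages and monocytes, and 6.33 to 7.67 against 5.39 to 5.80 for neutrophils. The endothelial, macrophage and neutrophil ranges did not overlap, and the fibroblast ranges did. Of the 6 tested genes of the neutrophil list 3 were called higher, S100a9, S100a8 and Mmp9, beside 2.31% of all genes. No gene of the fibroblast, endothelial or macrophage list was called. Which cells these transcripts came from was not tested. Mass 426 also had the highest fibroblast and smooth muscle levels, 9.13 and 9.81. The mean of the squamous list hardly differed, at 11.7 to 11.9 in masses and 11.7 to 11.8 in control forestomach. Of its 10 genes 1 was called higher and 1 lower in the masses, beside 10.7% of all genes. The part of other cell types in the values of the members was not tested. Ereg, Btc and Erbb3 were called with and without mass 426, but the call of Erbb3 was lost without mass 412 (adjusted p = 0.0669).

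**Figure D3:**
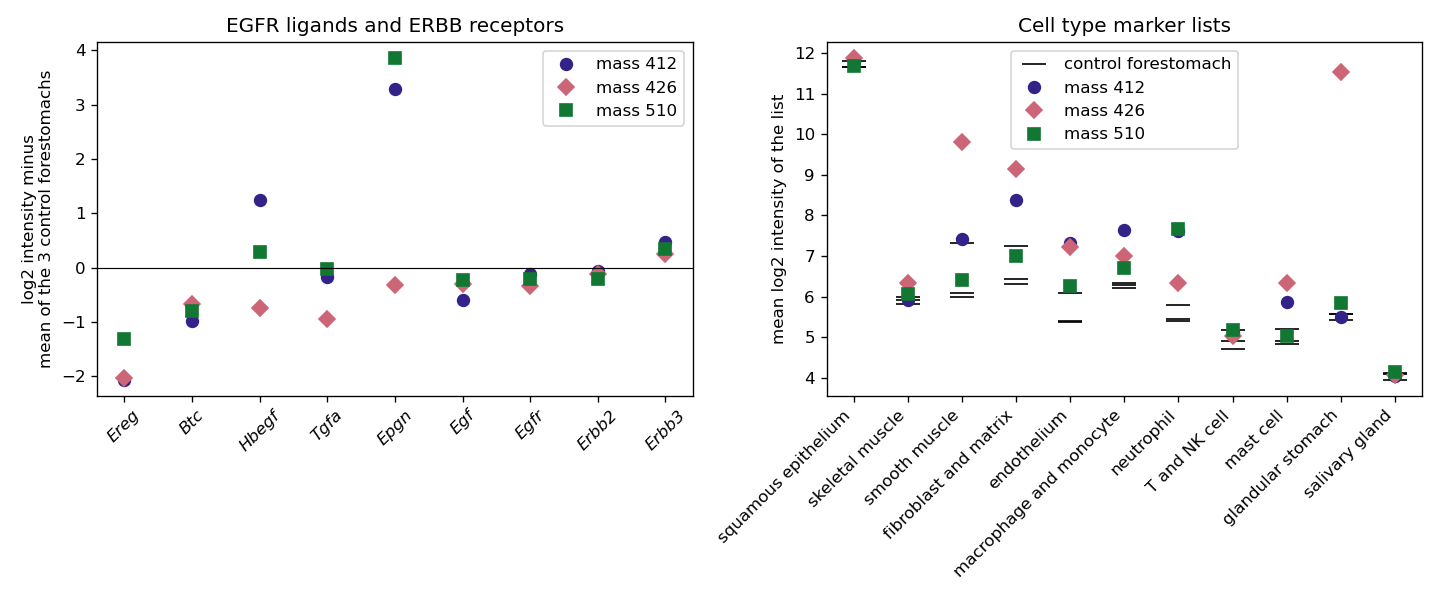
Left, each mass minus the mean of the 3 control forestomachs, in log2 units, for the 9 members; right, mean log2 intensity of each cell type marker list in the 3 masses and, as dashes, in the 3 control forestomachs. Mass 426 parts from the other masses for Epgn, and its glandular stomach list stands at 11.5 while masses 412 and 510 are at 5.50 and 5.84.

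The neuregulins are ligands of ERBB3, ERBB4 or both, and not every neuregulin binds ERBB3. Nrg4 read 5.71 ± 0.14 (SD, n = 3) in control forestomach and 4.47 ± 0.24 (SD, n = 3) in masses, and 4.61 ± 0.20 (SD, n = 3) and 4.39 ± 0.13 (SD, n = 4) in control and flox/flox esophagus. It passed the filter only through control forestomach, where it is highest, so its levels are given as a description and its tests are not used. Among the 8.4% of all genes called lower in the masses, Nrg2 fell by 0.71 in the masses (SE 0.14, adjusted p = 0.00806). Nrg1 read 6.84 ± 0.18 (SD, n = 3) in control forestomach and 7.25 ± 0.60 (SD, n = 3) in masses and was not called (adjusted p = 0.396), and Nrg3 lay below the filter, with group means from 4.74 to 4.91.

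Of the 8 genes for ligand release, 2 rose and 1 fell in the masses, beside 10.7% of all genes called. Adam10 and Adam9, which make membrane proteases that shed proteins from the cell surface, rose. Adam10 was up by 0.58 (SE 0.13, adjusted p = 0.0141) and Adam9 by 1.03 (SE 0.25, adjusted p = 0.0238). Rhbdf1, which makes the inactive rhomboid iRhom1, a partner of ADAM17, fell by 0.59 (SE 0.13, adjusted p = 0.0146). Adam17 itself, the main sheddase of several EGFR ligands, differed by -0.10 (SE 0.14, adjusted p = 0.729). Without mass 426 the call of Adam9 was lost (0.88, adjusted p = 0.0627), and those of Adam10 and Rhbdf1 were kept.

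Of the 16 feedback inhibitors and genes of receptor turnover, Lrig2 fell by 0.63 (SE 0.14, adjusted p = 0.018) and none rose in the masses, so 1 of 16 was called, beside 10.7% of all genes. Without mass 426 the list held 4 called genes, Lrig1, Lrig2 and Spred2 lower and Socs5 higher, beside 11.6% of all genes. Of 20 tested adaptors and kinases 3 were called, and of 12 genes that respond to ERK 2 were, beside the same 10.7% of all genes. Akt1, of the first list, rose by 0.65 (SE 0.15, adjusted p = 0.0202), and the kinase gene Araf fell by 0.40 (SE 0.10, adjusted p = 0.0236). Pik3r2, a regulatory subunit gene of PI3-kinase, fell by 0.46 (SE 0.11, adjusted p = 0.0265). Pik3r2 was not called without mass 426 (adjusted p = 0.0585). In the ERK list the immediate early gene Egr1 fell by 1.47 (SE 0.37, adjusted p = 0.0267). Dusp5, which makes a nuclear ERK phosphatase, fell by 0.96 (SE 0.24, adjusted p = 0.0285), and the remaining 10 were not called. The calls of Araf, Pik3r2 and Dusp5 were lost without the 3 stromal esophagus arrays (adjusted p = 0.0566, 0.0622 and 0.0601), whose values do not enter these differences but only the estimate of the spread. The medians of the lists were 0.07 for ligand release, -0.12 for feedback, 0.01 for adaptors and kinases and -0.04 for ERK response genes, beside 0.01 for all genes.

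**Figure D4:**
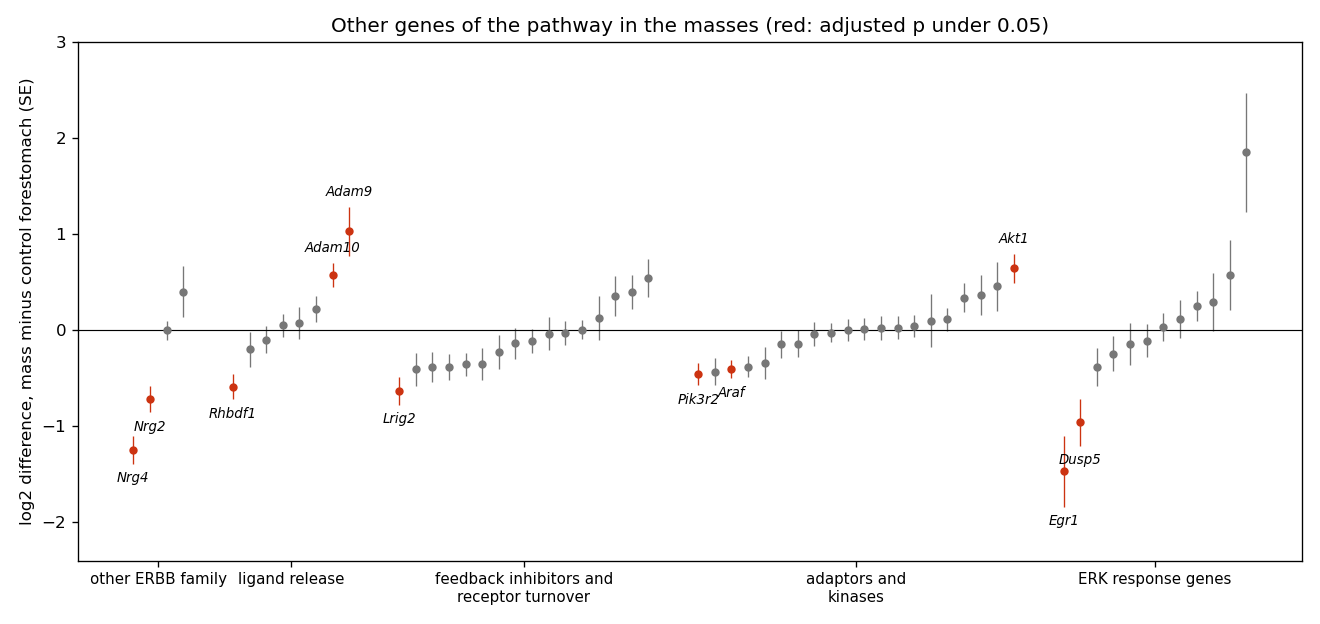
Log2 difference between masses and control forestomach, with its SE, for every tested gene of 5 lists around the family, sorted within each list; red marks an adjusted p under 0.05. Called genes lie on both sides of 0 in the ligand release list and in the list of adaptors and kinases, and below 0 in the other 3; Nrg4 passed the filter only through control forestomach.

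In the esophagus none of the genes of these 5 lists was called, beside 0.0126% of all genes. Without the stromal arrays none was called either, where only 1 gene of all those tested was. With so few calls over all genes, this says little about the lists. Between the control tissues Dusp5 was higher in forestomach (1.45, SE 0.24, adjusted p = 0.00416). Gab1, an adaptor of EGFR, was lower (-0.95, SE 0.11, adjusted p = 0.000517), and so was Lrig3 (-0.88, SE 0.16, adjusted p = 0.00651). With the animal as a random block 2 of 8 ligand release genes, 6 of 16 feedback genes, 3 of 20 adaptors and kinases and 4 of 12 ERK response genes were called, beside 16.8% of all genes.

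The genes with the most similar profile were found by the root mean square difference of centred log2 values over the 13 arrays, for the 3 members whose group means spanned 1 log2 unit or more. Nearest to Ereg were Acaa1b (0.32), Ccl6 (0.33) and Elovl6 (0.33), which encode a peroxisomal thiolase, a chemokine and a fatty acid elongase. Nearest to Btc were Abhd3 (0.18), Fam81a (0.19) and Cpd (0.21). Nearest to Epgn, and at a greater distance, were Klk6 (0.62), Krt17 (0.78) and Il19 (0.81), which encode a kallikrein protease, a keratin of wounded epidermis and a cytokine. Klk6 had group means of 6.16 and 6.64 in control and flox/flox esophagus, 8.08 in control forestomach and 9.81 in masses. These arrays share their tissue groups, so the likeness is a description of 13 profiles.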

How the data were processed

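The arrays were made from Trizol total RNA as biotin-labelled cRNA, per the labels. The deposited table holds intensities on a linear scale for 34729 probe sets, made with GCRMA per the submitters' processing notes, a method that corrects background by probe sequence; no source used here names its version or the build of the array's annotation. The median intensity per array was 65.3 to 72.4, and precision is limited by how many arrays there were. Values were put on the log2 scale with a floor of 1, which no value fell below. Probe sets listed with several genes (1306) or none (11790) were not named. Genes entered the test with a log2 value over 5 on 3 or more arrays.

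One fit of 4 group means with 9 residual degrees of freedom was made with limma 3.58.1 (lmFit, eBayes) in R 4.3.3, with Benjamini-Hochberg adjustment over 15875 genes; it was tested on simulated data. Unadjusted p-values under 0.05 were found for 1108 genes in the esophagus, 3942 in the forestomach, 1664 for the difference and 3428 between control tissues. The labels show that 3 control animals gave both tissues. Deviations from the group means correlated across genes at 0.315 to 0.401 within an animal and at -0.425 to 0.129 between animals. These ranges are not independent of each other, because the deviations in each group of 3 sum to 0. Apart from the 3 control animals, animal numbers name different animals. The members and lists were chosen with earlier results of these data known. Named genes are all members, Ctnnd1, Erbb4 and the neuregulins, up to 4 called genes of a list by smallest adjusted p (more are named where mass 426 is left out, chosen after their values were seen), and 3 nearest profiles, skipping predicted genes. The lists held 5 sets of pathway genes and 11 of cell type markers, and some listed genes are not reported here. The promoter windows are from RefSeq, GRCm38.p6. Alternatives covered filters, probe sets, normalization, floor, arrays in the fit, animal block, array weights, variance prior, a muscle covariate and leaving out arrays.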

Additional observations from a re-analysis of the deposited data

Results flagged for a closer look

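Tgfa in the esophagus of flox/flox animal 307 read 9.08, while the other 3 flox/flox esophagus samples read 8.50, 8.60 and 8.60. The gap to its nearest neighbour took up more of the group's range than Dixon's 95% limit for 4 samples allows. The 9 members were each checked in the 1 group of 4, and chance marks about 1 in 20 such groups. The esophagus of animal 307 is also 1 of the 3 esophagus arrays with skeletal muscle transcripts. The part of that tissue in the Tgfa value was not tested.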

How the results depend on the processing

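Over all comparisons and alternatives, the 9 members kept their direction and their side of the threshold in 852 cases, lost a call in 15, gained 1 in 11 and changed sign in 11. Ereg in the masses was called in all 25 alternatives (highest adjusted p 0.0258). The causes of the lost and gained calls and of the changed signs were not tested. Signs turned only for differences that were not called. In the esophagus Tgfa was 0.0478 with array weights and -0.175 to 0.0781 with 1 array left out, Epgn was 0.0558 with the muscle covariate and -0.0909 to 0.0874, and Egf and Erbb2 were -0.0524 and -0.0191 without the esophagus arrays of 214, 307 and 335. Hbegf ranged from -0.227 to 0.765 in the masses and from -0.431 to 0.0247 between the control tissues, and Egf from -0.162 to 6.67e-05 between the latter, with 1 array left out.

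Genes called in the esophagus (2 in the fit reported) were 1 with median centring, 0 with its arrays alone, 0 with the replicate block, 0 with the muscle covariate, 1 without the arrays of 214, 307 and 335 and 0 to 7 with 1 array left out. In the forestomach (1700) they were 458 with its arrays alone, 1102 with array weights and 747 to 2238 with 1 array left out: 747, 825 and 804 without control 214, 216 or 217. For the difference of the changes (22) they were 101 with the filter at 7, 53 with quantile normalization, 51 with median centring, 145 with the replicate block, 60 with array weights, 56 with a robust trended prior, 5 without the 3 esophagus arrays and 10 to 373 with 1 array left out, 139 without mass 426 and 373 without mass 510. Its split of 13 higher and 9 lower became 25 and 28 with quantile normalization and 16 and 35 with median centring. In the forestomach the split of 366 and 1334 became 514 and 1122, and 232 and 1732. Between the control tissues (1059) they were 2377 with these arrays alone, 2670 with the animal as a random replicate block, 2587 with it as a fixed block, 3802 with array weights, 496 without the 3 esophagus arrays and 538 to 1564 with 1 array left out, lowest without control forestomach 216.

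Members called higher in the masses were 0 with median centring, the forestomach arrays alone, array weights or without the 3 esophagus arrays, and 0 to 2 with 1 array left out. The 2 were Erbb3 and Epgn without mass 426, and this call of Epgn is not used, because it passed the filter only with the masses. Members called lower were 1 with the forestomach arrays alone. For the difference 0 to 1 was called with 1 array left out. The 1 was Epgn without mass 426, a call not used because its esophagus values lay below the filter. Between the control tissues 1 was called higher without the 3 esophagus arrays and 1 to 3 with 1 array left out. The third was Epgn without mass 426 (adjusted p = 0.0372), likewise not used. Members called lower between the control tissues were 1 with the filter at 7, 1 with either replicate block and 2 with array weights. These were Erbb2, and with array weights Erbb3 as well. Tgfa was called there with the fixed block (0.43, adjusted p = 0.0283). The block changed no other call of a member. For the called pathway genes and Ctnnd1, recomputed after the data were seen, 381 cases kept their side of the threshold and 47 lost a call, all in the forestomach, and no sign turned. Nrg2 lost none, and Nrg4 is not counted here.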
